A study of Bos taurus with 12 samples.

Results

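The aminoacyl-tRNA synthetase genes are described here in cattle (Bos taurus) precursor adipocytes, 48 h after transfection. Members were chosen by name alone: every gene of the count table whose symbol is an amino acid letter followed by ARS, with or without a 1 or 2, together with EPRS and the FARSA and FARSB subunits. This gave 37 of the 29240 named genes, of which 20 were taken as cytosolic and 17, whose symbols end in 2, as mitochondrial. All 37 had enough reads to pass the filter on low counts and were tested. The table uses the older symbols, so that NARS stands for the gene now called NARS1 and WARS for WARS1.

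Aminoacyl-tRNA synthetases join each amino acid to its own tRNA with the energy of ATP, which is the step that gives the genetic code its meaning during translation. Cytosolic enzymes charge the tRNAs used to read nuclear messages, and a distinct set of nuclear-encoded enzymes is imported into mitochondria to charge the tRNAs that read the mitochondrial genome. In human cells GARS and KARS supply both compartments from the same gene, several cytosolic enzymes sit together in a multisynthetase complex, and uncharged tRNA activates the kinase GCN2, after which the transcription factor ATF4 raises genes of amino acid uptake and synthesis and several cytosolic synthetase genes. As enzymes needed for all protein synthesis they are expressed in every nucleated cell, fat cell precursors included.

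The study held 12 libraries in 4 groups of 3. In the overexpression assay, OE cells received the plasmid pcDNA3.1 carrying HGFAC, the gene of the HGF activator protease, and OE_NC cells received its pcDNA3.1-NC control. In the interference assay, si cells stood against their negative control si_NC, and the labels name no target for si. Stranded libraries were prepared from polyadenylated RNA. Breed, age and number of animals are not in the labels, nor whether the replicates of a group came from different cultures, so p-values measure only the spread between these libraries, which may be technical.

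Counts assigned to genes summed to between 28.9 M and 42.7 M per library, and replicates of a group correlated at 0.984 to 0.993 (log2 CPM). HGFAC had 189.6, 156 and 138 CPM in OE (counts per mega-count of the library after normalisation), against 0.273, 0.379 and 0.526 CPM in OE_NC. It had 0.843, 0.525 and 0.605 CPM in si, against 0.818, 0.738 and 0.935 CPM in si_NC, where the log2 change was -0.35 ± 0.27 (SE; edgeR adjusted p = 0.512). The stromal precursor markers PDGFRA and PDGFRB averaged 275 and 109.7 CPM over the 12 libraries (marker means were scaled to library totals only). The precursor markers DLK1 and CD34 were near 0 (0.0698 and 0.0286 CPM). Defining markers of fat cells (ADIPOQ, 0.0600 CPM) and immune cells (PTPRC, 0.0283 CPM) were at or near 0 as well. So were those of epithelium (EPCAM, 0.0329 CPM) and muscle (MYOG, 0.00576 CPM). Some other markers of these types were higher: PLIN1 1.41, CIDEC 1.11, CD68 4.40, CD163 2.41, CD14 1.40, KRT19 1.91, MYH3 1.73 and ACTA1 12.0 CPM. Endothelial markers averaged between 0.317 (CDH5) and 1.47 CPM (VWF). Some libraries were the highest or the lowest of their group for most cytosolic synthetase genes. Among them were si replicate 3 and si_NC replicate 2, whose omission moved calls, and OE replicates 1 and 3, which deviated by less.

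The cytosolic synthetase messages were abundant and the mitochondrial ones scarce. Levels between genes were compared as RPKM, counts scaled to library total and exon length, since exon lengths differ. The median cytosolic gene averaged 56.5 RPKM over the 12 libraries (range 15.1 to 333), and the median mitochondrial gene 3.48 RPKM (range 0.266 to 24.4), a ratio of medians of 16.3. The median percentile of a member among all named genes by mean RPKM was 96.0 for the cytosolic set and 74.0 for the mitochondrial set. Depth differed accordingly: raw counts per library lay between 696 and 39130 for cytosolic genes, and for the lowest mitochondrial gene, MARS2, between 8 and 30.

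At the top stood NARS, which charges asparagine tRNA, at 333 ± 37.0 RPKM (mean ± SD, n = 12 libraries). SARS, the serine enzyme that also supplies the serine later turned into selenocysteine, followed at 296 ± 51.3 RPKM, and TARS, the threonine enzyme, at 139 ± 21.7 RPKM. NARS and SARS overlapped across libraries (271 to 381 RPKM and 218 to 368 RPKM), whereas TARS (111 to 167 RPKM) lay below both. AARS, the alanine enzyme, averaged 90.3 ± 16.4 RPKM. The lowest cytosolic genes were the valine enzyme VARS (15.1 ± 1.64 RPKM), the isoleucine enzyme IARS (15.1 ± 2.21 RPKM) and the methionine enzyme MARS (17.0 ± 2.33 RPKM), whose levels overlapped.

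Among the mitochondrial genes, IARS2 was highest at 24.4 ± 2.77 RPKM, followed by WARS2 at 13.2 ± 2.21 RPKM and LARS2 at 8.29 ± 0.442 RPKM, the enzymes for isoleucine, tryptophan and leucine. These 3 ranges did not overlap. At the low end were MARS2 (0.266 ± 0.0744 RPKM) and PARS2 (0.666 ± 0.153 RPKM), the mitochondrial methionine and proline enzymes. IARS2 was the only mitochondrial gene above the lowest cytosolic one, and 5 cytosolic genes averaged less than it.

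**Figure D1:**
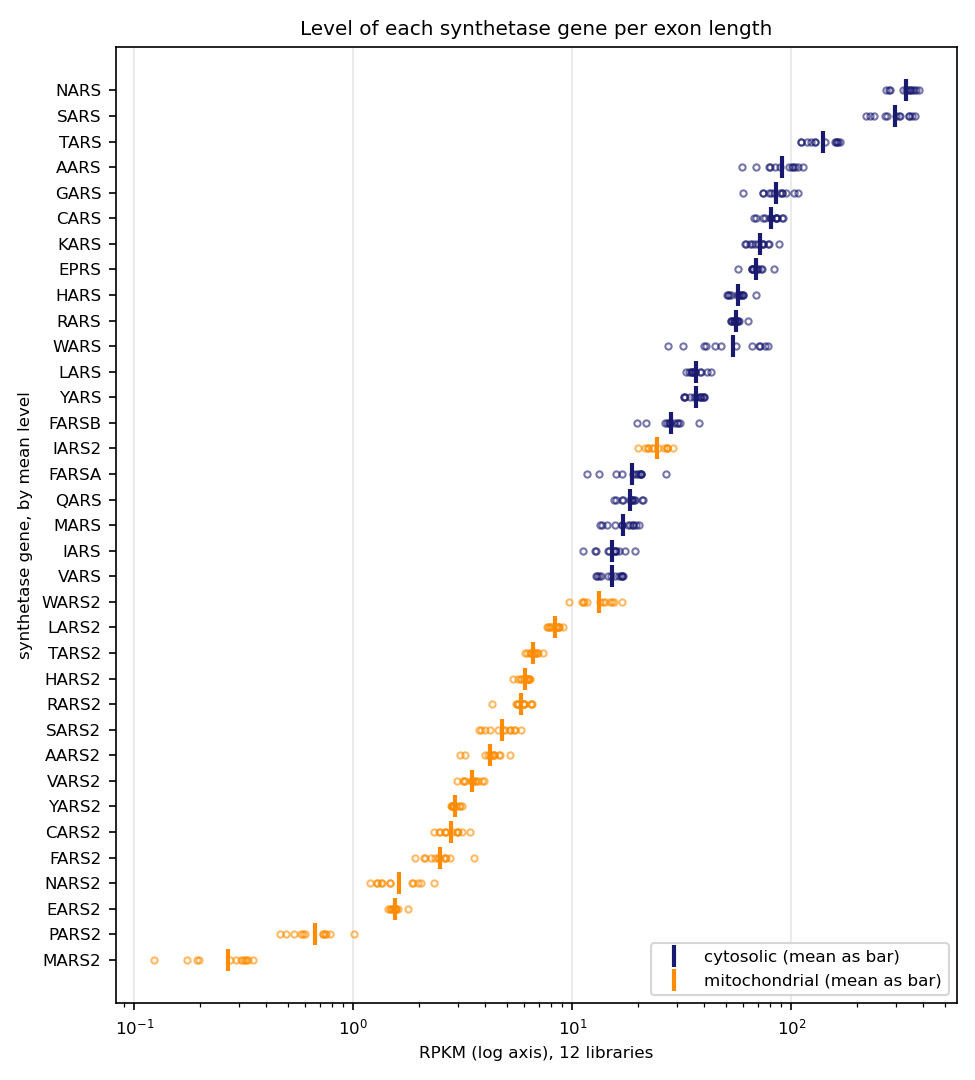
RPKM of 35 synthetase genes in the 12 libraries (circles, log axis) with the mean as a vertical bar, ordered by mean level. Cytosolic genes (dark) fill the upper end from 333 RPKM for NARS down to 15.1 RPKM for VARS, and IARS2, at 24.4 RPKM, is the only mitochondrial gene (orange) among them.

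For 14 amino acids a cytosolic gene and a mitochondrial gene carry the same letter. In 13 of these the cytosolic message was the more abundant per length. The ratio was highest for NARS over NARS2, 217 ± 57.5 (mean ± SD of 12 libraries), and stood at 69.0 ± 22.0 for MARS over MARS2 and 62.8 ± 10.4 for SARS over SARS2. It was lowest, and below 1 in every library, for IARS over IARS2, at 0.627 ± 0.112 (range 0.414 to 0.787). The methionine ratio rests on few reads of MARS2. FARS2, EARS2 and PARS2 had no cytosolic partner by this naming rule and were left out.

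Summed over members, cytosolic RPKM exceeded mitochondrial RPKM 19.5 to 19.7 times in OE libraries and 17.6 to 19.6 times in OE_NC libraries. The ratio was 15.5 to 17.9 in si libraries and 15.5 to 17.7 in si_NC libraries. The ranges of si and si_NC overlapped, and OE lay within or just above the range of OE_NC. The overexpression libraries stood above the interference libraries except that OE_NC replicate 1 (17.6) lay below si replicate 3 (17.9) and si_NC replicate 2 (17.7). All 37 genes together took 0.407 to 0.508% of the counts.

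After interference NARS fell, and no other member passed the test: 1 of 37 members was called lower and 0 higher, where 2.54% of all 16300 genes tested were called, 0.92% higher and 1.62% lower. That share is near the background and is not a result about the family. The median log2 change was -0.02 over the members, with 14 above 0 and 23 below, and 0.02 over all genes tested. At an unadjusted p under 0.05 there were 11 members, 4 higher and 7 lower, against 18.9% of all genes. The 95% interval of a member's log2 change reached 0.21 to either side (median over 37), and the reach was shorter for abundant genes with close replicates.

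NARS lies on chromosome 24 (56833276 to 56850112, minus strand, in the coordinates of the count table, whose genome build is not given in the sources used here). It had 798, 787 and 771 CPM in si libraries, against 1009.7, 944 and 1040.0 CPM in si_NC libraries. The groups did not overlap, and the si libraries were also below all OE and OE_NC libraries. The message fell by 0.35 on the log2 scale (± 0.06 SE), or by 21.3%, at an edgeR adjusted p of 0.00971. The call was lost without si replicate 2 (log2 -0.35, edgeR adjusted p = 0.0509), where 0.415% of all genes were called. It was also lost in a fit of only the si and si_NC libraries (log2 -0.34, edgeR adjusted p = 0.109), where 0.0524% were. In bulk RNA, fewer cells of a type and less RNA per cell cannot be told apart.

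LARS, the leucine enzyme of the complex, which in human cells also takes part in leucine sensing by mTORC1, had 133, 138 and 149 CPM in si, against 176, 151 and 167 CPM in si_NC. Again the groups did not overlap, with si_NC replicate 2 closest to the si libraries. The log2 change was -0.23 ± 0.07 (adjusted p = 0.0981), and it was called without si_NC replicate 2 (log2 -0.30, adjusted p = 0.0296) and without that library and si replicate 3 together (log2 -0.35, adjusted p = 0.0111). The other 5 fits that left out a library did not call it (adjusted p between 0.0524 and 0.328), and without si_NC replicate 1 the log2 change was -0.18. With every library kept, DESeq2 called it (log2 -0.25, DESeq2 adjusted p = 0.0249), where 8.56% of all genes were called.

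WARS, the tryptophan enzyme and the synthetase known in human cells as an interferon-gamma response gene, had 91.2, 82.7 and 115 CPM in si, against 59.6, 84.4 and 69.0 CPM in si_NC. AARS had 326, 294 and 372 CPM in si, against 235, 303 and 268 CPM in si_NC. In both genes the groups overlapped only through si_NC replicate 2, which was above si replicate 2. The log2 changes were 0.44 ± 0.15 for WARS (adjusted p = 0.137) and 0.30 ± 0.11 for AARS (adjusted p = 0.147). Without si_NC replicate 2 they were 0.57 (adjusted p = 0.0403) and 0.39 (adjusted p = 0.0454), and both genes were called. Without si replicate 3 they were 0.29 (adjusted p = 0.307) and 0.20 (adjusted p = 0.315), and without both libraries 0.43 (adjusted p = 0.0716) and 0.29 (adjusted p = 0.0797), so neither was called. With every library kept and no filter on low counts, both were called (edgeR adjusted p = 0.000595 and 0.0307), where 4.13% of all genes were. In the fit without si_NC replicate 2 6 members were called, while 6.45% of all genes were.

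Groups did not overlap for 9 members (3 higher and 6 lower in si), against 20.8% of all genes tested. The other members had log2 changes between -0.23 and 0.29. Within the mitochondrial set none was called, 13 of 17 were below 0 and the median log2 change was -0.05. No test was made of that lean.

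**Figure D2:**
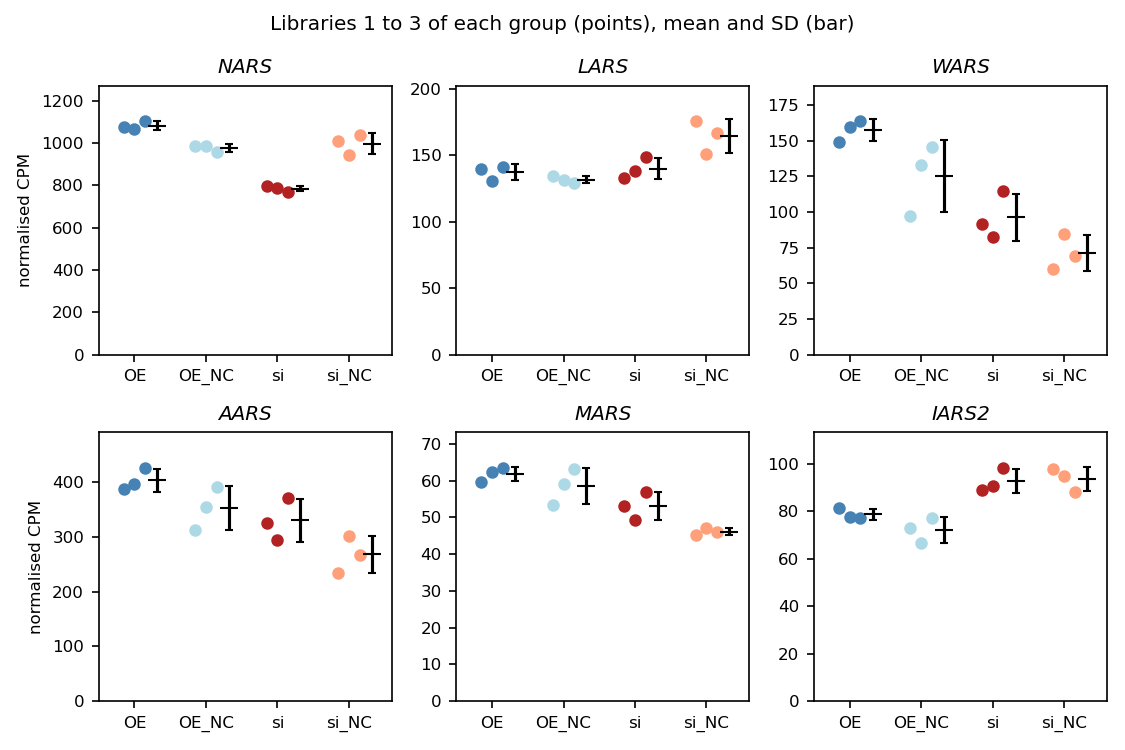
Normalised CPM of 6 synthetase genes in the 12 libraries (points) by group, with the group mean and SD as a black bar beside them. The 3 si libraries of NARS (771 to 798 CPM) lie below every other library, whereas WARS, AARS and MARS have their lowest group mean in si_NC and IARS2 has its own in OE_NC.

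No synthetase gene passed the test when HGFAC was overexpressed. In OE against OE_NC, 0 of 37 members were called by edgeR, where 4.47% of all genes tested were called, 2.22% higher and 2.25% lower. DESeq2 called 0 members and 10.5% of all genes, and limma on log2(RPKM + 1) called 0 members and 3.75% of all genes. With no filter on low counts FARSA and WARS were called (adjusted p = 0.00168 and 0.00994), where 5.74% of all genes were. The median log2 change was 0.02 over the members, with 19 above 0 and 18 below, and -0.0046 over all genes. At an unadjusted p under 0.05 there were 6 members, 4 higher and 2 lower, all of them cytosolic, while 22.9% of all genes reached that level. The 95% intervals reached 0.21 to either side here as well (median over 37), and a missed threshold does not show equal levels.

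Members with small p-values included NARS, VARS, FARSA and WARS. NARS had 1078, 1067 and 1105 CPM in OE, against 987, 989 and 958 CPM in OE_NC, with no overlap and a log2 change of 0.15 ± 0.06 (edgeR adjusted p = 0.150). WARS had 149, 159.7 and 164 CPM in OE, against 96.9, 133 and 146 CPM in OE_NC (log2 0.33 ± 0.15, adjusted p = 0.204). In both genes each OE library was above each OE_NC library, and for WARS the distance depends on OE_NC replicate 1, without which the log2 change was the smallest of its leave-one-out values (0.17).

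VARS had 71.7, 73.1 and 75.3 CPM in OE, against 90.9, 87.3 and 80.1 CPM in OE_NC, also without overlap (log2 -0.23 ± 0.10, adjusted p = 0.162). Of its 5515 exon bases, 338 are shared with LSM2 on the same strand, so reads there could not be assigned to one gene by position. FARSA, the catalytic alpha subunit of the phenylalanine enzyme, had 35.9, 31.4 and 21.4 CPM in OE, against 48.1, 35.4 and 36.5 CPM in OE_NC. Its groups overlapped, OE replicate 3 was lowest, and the log2 change was -0.43 ± 0.19 (adjusted p = 0.192). Groups did not overlap for 8 members in all (6 higher and 2 lower in OE), against 33.3% of all genes tested.

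The OE change and the si change of NARS differed. This comparison sets the log2 change of OE over OE_NC against that of si over si_NC, and it called 2 of 37 members, both higher, where 8.41% of all genes were called, 4.29% higher and 4.12% lower. At an unadjusted p under 0.05 there were 6 members, all higher, against 24.4% of all genes. For NARS the difference was 0.49 ± 0.08 (edgeR adjusted p = 0.00395), and it stayed called in all 12 fits that left out a library and in the 11 other settings tried. The count over the members was 1 without si replicate 1, si replicate 2, OE replicate 1 or OE_NC replicate 2 (3.53 to 4.39% of all genes called). It was also 1 with library totals as scaling (9.41%) and with limma on log2(RPKM + 0.1) (8.57%).

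Among members that missed the threshold were LARS (difference 0.29 ± 0.10, adjusted p = 0.0949), EARS2 (0.32 ± 0.12, adjusted p = 0.129) and LARS2 (0.27 ± 0.11, adjusted p = 0.144). EARS2, which charges mitochondrial glutamate tRNA and, in mammals, also places glutamate on the glutamine tRNA, had 15.8, 15.7 and 16.0 CPM in OE, against 14.2 to 15.1 CPM in OE_NC. It had 14.1, 14.4 and 14.7 CPM in si, against 18.6, 15.8 and 15.7 CPM in si_NC. Neither pair of groups overlapped, and OE was the higher of its pair while si was the lower of its own. LARS2 had 35.2, 35.8 and 38.2 CPM in OE, against 33.3, 33.1 and 35.7 CPM in OE_NC, which overlapped. It had 36.9, 32.7 and 36.4 CPM in si, against 41.8, 38.1 and 39.3 CPM in si_NC, which did not.

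The widest differences among synthetase genes lay between the controls. OE_NC and si_NC carry different transfected controls in different assays, so that agent, reagent and assay cannot be told apart. In OE_NC against si_NC, 7 of 37 members were called, 5 higher, among them WARS, MARS, AARS and SARS, and 2 lower, LARS and IARS2, where 19.7% of all genes were called, 9.49% higher and 10.2% lower. The share of members is near that background and is not a result about the family. The median log2 change was 0.08 over the members and 0.02 over all genes. At an unadjusted p under 0.05 there were 11 members, 7 higher and 4 lower, against 34.1% of all genes. Of the 20 cytosolic genes 5 were called and of the 17 mitochondrial genes 2. OE_NC also enters the OE comparison and si_NC the si comparison.

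WARS (chromosome 21, 65238587 to 65261044, minus strand) showed the largest called change, 0.82 ± 0.15 on the log2 scale (edgeR adjusted p = 0.00254). Its levels are those given above: 96.9 to 146 CPM in OE_NC, against 59.6 to 84.4 CPM in si_NC, with no overlap and a mean 76.2% higher in OE_NC. MARS (chromosome 5, 55960451 to 55988160, minus strand), whose product charges both initiator and elongator methionine tRNA, had 53.5, 59.2 and 63.2 CPM in OE_NC, against 45.3, 47.1 and 46.0 CPM in si_NC (log2 0.35 ± 0.08, adjusted p = 0.00776). The groups did not overlap. Of its 3228 exon bases, 63 are shared with DDIT3 on the opposite strand, a gene with a mean of 269 CPM that rose in the same comparison (log2 0.45 ± 0.12, adjusted p = 0.0147), and 190 with ARHGAP9. The counting strand is not given in the sources used here, so reads in those bases cannot be assigned.

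AARS (chromosome 18, 1753605 to 1813087, plus strand) had 312, 356 and 392 CPM in OE_NC, against 235, 303 and 268 CPM in si_NC (log2 0.40 ± 0.11, adjusted p = 0.0184). SARS (chromosome 3, 34169921 to 34189786, minus strand) had 547, 559 and 618 CPM in OE_NC, against 426, 513 and 458 CPM in si_NC (log2 0.30 ± 0.10, adjusted p = 0.0481). No groups overlapped in either gene, but these calls were less stable than those of WARS and MARS. AARS was called in 2 of the 6 fits that left out a library and SARS in 1.

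IARS2 (chromosome 16, 23586935 to 23631282, plus strand) had 73.0, 66.5 and 77.4 CPM in OE_NC, against 97.8, 94.8 and 88.0 CPM in si_NC. It fell by 0.37 on the log2 scale (± 0.08 SE; adjusted p = 0.00418). LARS (chromosome 7, 57327430 to 57398015, minus strand) had 135, 132 and 129 CPM in OE_NC, against 176, 151 and 167 CPM in si_NC, and fell by 0.32 (± 0.07 SE; adjusted p = 0.0074). In both genes every OE_NC library was below every si_NC library. WARS, MARS, IARS2 and LARS were called in all 6 fits that left out a library and in the 12 other settings. Groups did not overlap for 13 members (7 higher and 6 lower in OE_NC), against 35.8% of all genes tested.

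**Figure D3:**
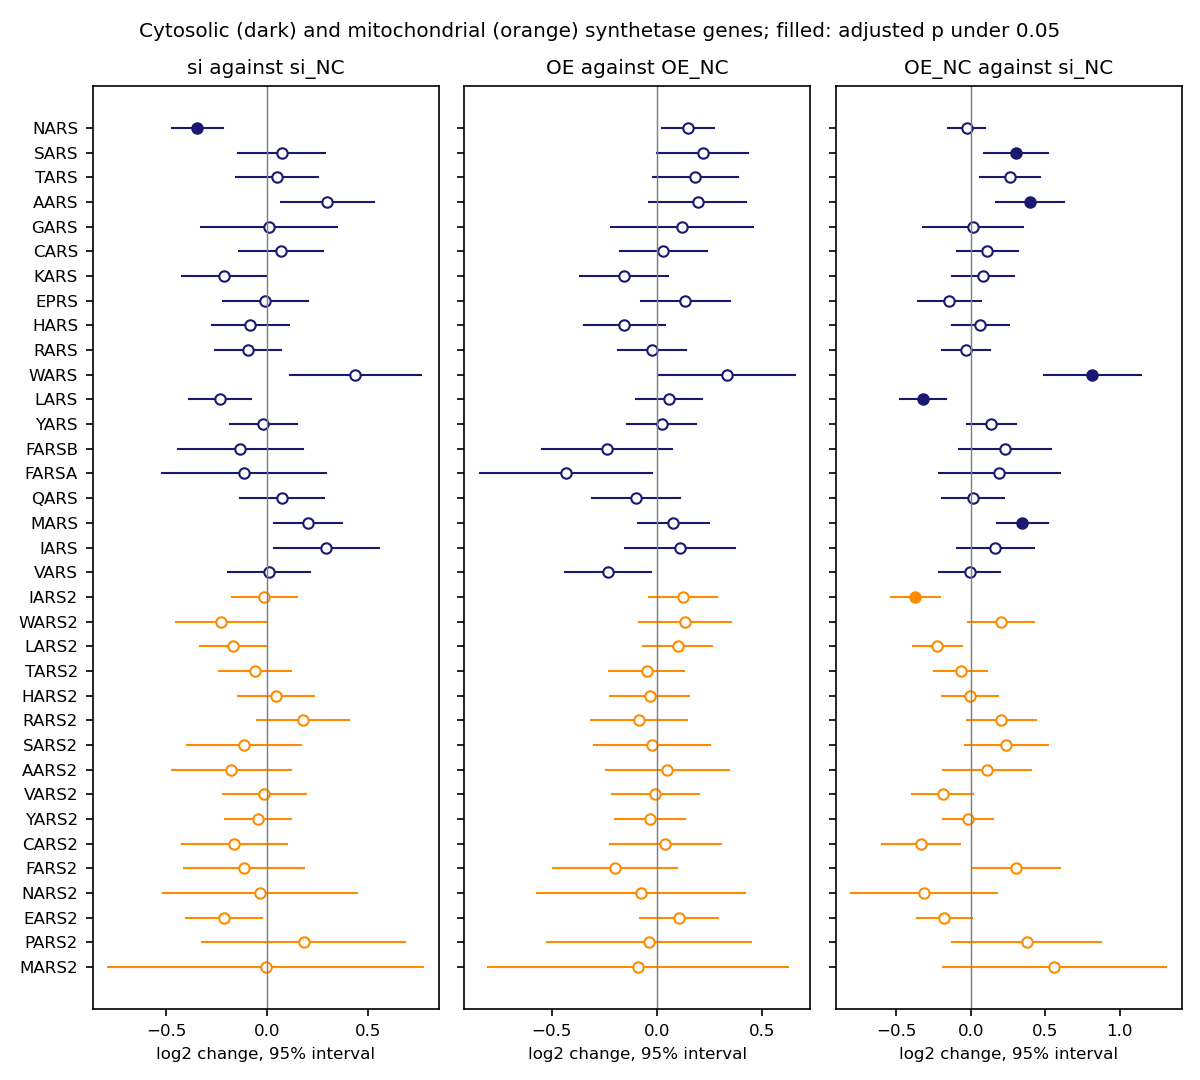
Log2 change and 95% interval of 35 synthetase genes in the 3 group comparisons, cytosolic genes above and mitochondrial genes below, each ordered by level; filled points passed adjusted p under 0.05. NARS is the filled point for si against si_NC, none is filled for OE against OE_NC, and 6 are filled for OE_NC against si_NC, with WARS at 0.82 and IARS2 at -0.37.

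Cytosolic members were also split by what their proteins are known to do, in mammals, outside these data. The 8 enzymes of the multisynthetase complex (among them EPRS, IARS, KARS, LARS, MARS, QARS and RARS) had a median log2 change of -0.05 in si against si_NC, and the 12 free enzymes one of 0.01. In OE against OE_NC the medians were 0.07 and 0.07, and in OE_NC against si_NC -0.01 and 0.16. By catalytic fold, EPRS left out, the 9 class I genes had medians of 0.07, 0.03 and 0.11 in these comparisons and the 10 class II genes -0.10, 0.13 and 0.13. These medians are descriptions, and differences between the kinds were not tested. Calls fell in both kinds: LARS and MARS in the complex, and NARS, WARS, AARS and SARS among the free enzymes.

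For 8 of the 37 members the start of another gene lay within 1000 bases upstream, on the opposite strand and pointing away. SARS2 was not counted, as it overlaps MRPS12 on the opposite strand: their starts were 2 bases apart, with 3 exon bases shared. HARS and HARS2, the cytosolic and mitochondrial histidine enzymes, are neighbours whose starts were 49 bases apart, with mean levels of 127 and 15.5 CPM. Neither was called in any comparison. In OE_NC against si_NC, HARS had a log2 change of 0.06 and HARS2 one of -0.0038. AARS and DDX19A, an RNA helicase gene, had starts 109 bases apart, and in OE_NC against si_NC both were called, AARS higher (log2 0.40) and DDX19A lower (log2 -0.35, adjusted p = 0.00424). These neighbours were named after their values were seen.

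Genes that work with the synthetases were read from 7 lists of companions. Of all genes tested, 2.54% were called in si against si_NC, 4.47% in OE against OE_NC and 19.7% in OE_NC against si_NC. Apart from the ATF4 list, the lists hold 15 genes or fewer, and their counts are not results about the lists. Of the 3 scaffolds of the multisynthetase complex, AIMP1 fell in si against si_NC, to 259.6, 262 and 247 CPM in si, against 341, 293 and 317 CPM in si_NC (log2 -0.31 ± 0.08, edgeR adjusted p = 0.044). The groups did not overlap. The call held in 1 of the 6 fits that left out a library, the one without si_NC replicate 2. That fit called 6.45% of all genes, and the others 0.334 to 4.09%. EEF1E1, another scaffold, rose in OE_NC against si_NC, with 39.3, 29.7 and 33.7 CPM in OE_NC, against 27.2, 21.1 and 29.7 CPM in si_NC (log2 0.40 ± 0.13, adjusted p = 0.0451). Its call held in 2 of 6 such fits.

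Of 10 accessory charging and proofreading factors, none was called in si or OE, and SEPSECS, which makes selenocysteine on its tRNA, fell in OE_NC against si_NC (log2 -0.46 ± 0.09, adjusted p = 0.00458). None of 6 cytosolic elongation factors was called in any comparison by edgeR. At an unadjusted p under 0.05 there was 1, lower in OE. Of 10 matched mitochondrial translation factors, 0 were called in si or OE, and 3 in OE_NC against si_NC, where 19.7% of all genes were. In OE_NC against si_NC the ribosome recycling factor MRRF (log2 0.48 ± 0.09) and the peptide release factor MRPL58 (log2 0.49 ± 0.11) rose and GFM2, another recycling factor, fell (log2 -0.31 ± 0.10, called in 1 of 6 fits that left out a library).

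RNA polymerase III makes the tRNAs themselves. Of 15 genes of this enzyme, its factors and tRNA export, 0 were called in si, where 2.54% of all genes tested were. In OE against OE_NC 2 were called, where 4.47% of all genes were. BDP1, a subunit of the initiation factor TFIIIB, had 271, 263 and 259 CPM in OE, against 179, 210.2 and 220.5 CPM in OE_NC (log2 0.38 ± 0.08, adjusted p = 0.0235). POLR3K, a small polymerase subunit, had 17.2, 17.3 and 17.0 CPM in OE, against 30.3, 23.4 and 23.0 CPM in OE_NC (log2 -0.57 ± 0.15, adjusted p = 0.042). Neither pair of groups overlapped, but each call held in 1 of 6 fits that left out a library, the one without OE_NC replicate 3. That fit called 4.54% of all genes, and the others 0.113 to 1.34%. In OE_NC against si_NC, 4 of the 15 were called, where 19.7% of all genes were. The same genes were among them with the opposite sign: BDP1 at -0.49 ± 0.08 and POLR3K at 0.55 ± 0.15. The OE_NC libraries enter both comparisons. BRF2, another TFIIIB subunit (log2 0.51 ± 0.14), rose and POLR3B, a catalytic subunit (log2 -0.32 ± 0.09), fell there as well. When a library was left out, BDP1 held its call in this comparison in 6 of 6 fits, POLR3B in 4, POLR3K in 3 and BRF2 in 2.

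The amino acid response was followed in 10 genes of the GCN2 branch and 24 genes of ATF4 and its known targets. In si against si_NC, 1 of the 24 was called, MTHFD2, a mitochondrial folate enzyme that supplies formate. It rose to 19.3, 20.4 and 23.2 CPM in si, against 14.5, 14.4 and 13.0 CPM in si_NC (log2 0.59 ± 0.11, edgeR adjusted p = 0.0157). The groups did not overlap. Leaving out si replicate 2 ended the call, as did leaving out replicate 1 or 3 of si_NC (edgeR adjusted p up to 0.0662). In those fits 0.334 to 0.804% of all genes were called. Over the list the median log2 change was 0.21 with 23 of 24 above 0, and 0.02 over all genes. Without si_NC replicate 2 the count was 8 of 24 higher, where 6.45% of all genes were called, and without si replicate 3 it was 3, where 4.09% were. In OE against OE_NC, 0 of 24 were called (4 higher and 1 lower at an unadjusted p under 0.05), with a median of 0.01.

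In OE_NC against si_NC, 17 of the 24 were called, all higher, beside 9.49% of all genes, with a median log2 change of 0.53. ATF4 itself had 429.9, 425 and 433 CPM in OE_NC, against 296, 318 and 303 CPM in si_NC (log2 0.49 ± 0.06, adjusted p = 0.000166). ATF5, a related factor, had 95.5, 97.8 and 96.7 CPM in OE_NC, against 58.1, 51.6 and 61.7 CPM in si_NC (log2 0.76 ± 0.11, adjusted p = 0.000438). The pseudokinase gene TRIB3 had 10.4, 13.7 and 15.8 CPM in OE_NC, against 3.57, 7.81 and 5.17 CPM in si_NC (log2 1.27 ± 0.23, adjusted p = 0.00211). None of these groups overlapped. The count stood between 11 and 17 when a library was left out, and was 11 without OE_NC replicate 2, where 11.3% of all genes were called. Of the 20 cytosolic synthetase genes 5 were called, with WARS, AARS, SARS and MARS higher in the same libraries and LARS lower. The calls of AARS and SARS held in 2 and 1 of the 6 fits that left out a library. The other 15 were not called, among them NARS (log2 -0.03 ± 0.06, edgeR adjusted p = 0.767), GARS (log2 0.02) and EPRS (log2 -0.15). Of the 20, 14 changes were above 0 and 6 below. A link between the synthetase genes and the ATF4 list was not tested. Of the GCN2 branch, EIF2AK4, the gene of GCN2, fell (log2 -0.29 ± 0.09, adjusted p = 0.0334, called in 2 of 6 fits that left out a library), as did PPP1R15B, a subunit that directs a phosphatase to eIF2 alpha (log2 -0.35 ± 0.08, adjusted p = 0.00649). These were 2 of the 10, where 19.7% of all genes were called, and none of the 10 was called in si or OE.

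**Figure D4:**
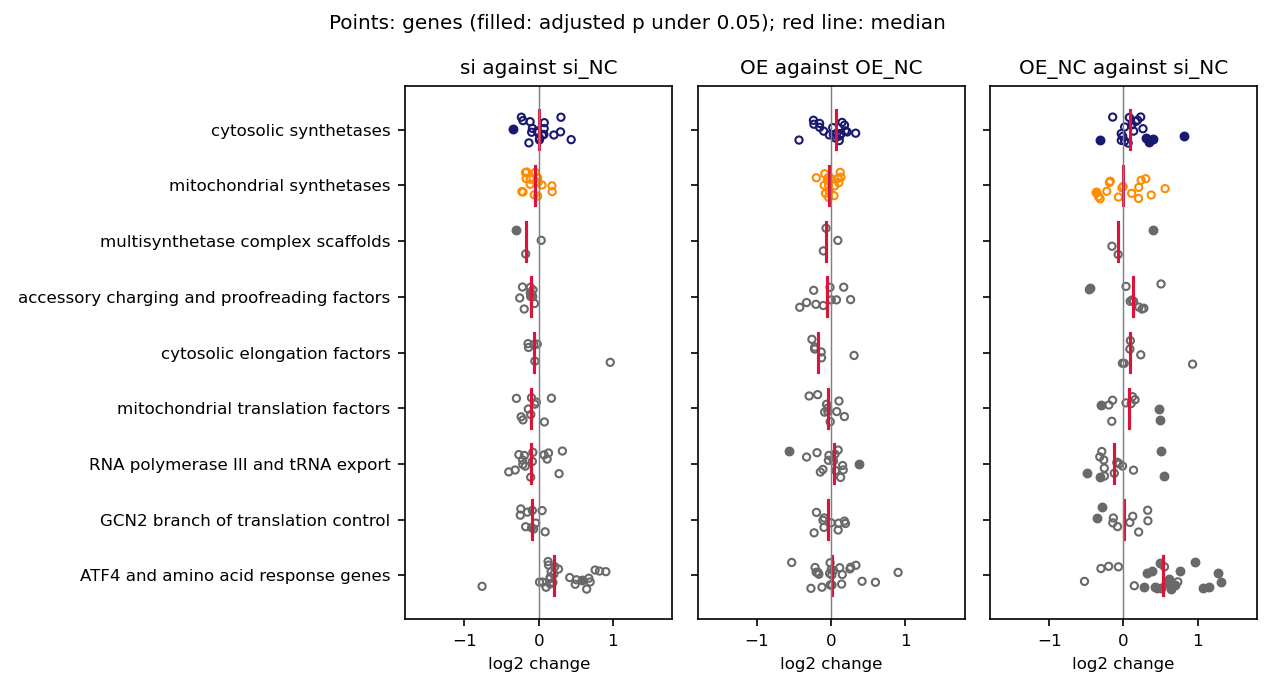
Log2 changes of the synthetase genes and of 7 companion lists (points, 35 of them synthetases; filled where adjusted p was under 0.05) in the 3 group comparisons, with the median of each list as a red line. The ATF4 list stands at a median of 0.53 for OE_NC against si_NC, 0.21 for si against si_NC and 0.01 for OE against OE_NC, while both synthetase sets have medians between -0.05 and 0.09.

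Among the cell type markers tested, only THY1 and ACTA1 were called in these comparisons. Of all genes tested, 2.54% were called in si against si_NC, 4.47% in OE against OE_NC and 19.7% in OE_NC against si_NC. THY1, a stromal precursor marker, rose in OE_NC against si_NC (log2 1.17 ± 0.14) and in si against si_NC (log2 0.66 ± 0.14), and 1 of the 4 precursor markers tested was called in each. The si call of THY1 held in 2 of 6 fits that left out a library, in which 4.09 and 6.45% of all genes were called. It was lost in a fit of only si and si_NC, which called 0.0524%. Scaled to library totals, the summed precursor markers lay between 502 and 515 CPM in OE and 381 and 521 CPM in OE_NC. They lay between 427 and 570 CPM in si and 350.4 and 476 CPM in si_NC. The muscle actin gene ACTA1 fell in OE against OE_NC (log2 -0.68 ± 0.14) and rose in OE_NC against si_NC (log2 0.76 ± 0.14). Its OE call held in 1 of 6 fits that left out a library, which called 4.54% of all genes. The others called 0.113 to 1.34%. The call between controls held in all 6. Again this was 1 of the muscle markers tested, with MYOD1 and MYOG near 0. Summed muscle markers lay between 10.5 and 12.1 CPM in OE, 15.9 and 19.1 CPM in OE_NC, 12.4 and 18.5 CPM in si, and 9.33 and 12.0 CPM in si_NC. No fat cell, immune, endothelial or epithelial marker was called. The part of these markers in the synthetase results was not tested.

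Within groups, certain libraries were the highest or the lowest for many cytosolic genes at once. From each gene the mean of the library's own group was taken. In si, replicate 3 was the highest for 13 of 20 cytosolic synthetase genes and the lowest for the other 7. It was the highest for 17 of 24 genes of the ATF4 list. In si_NC, replicate 2 was the highest for 10 cytosolic genes and the lowest for the other 10, and was the highest for 17 of the 24. In OE_NC, replicate 1 was the lowest for 10 cytosolic genes and the highest for 9, and was the lowest for 18 of the 24. Replicate 3 was the highest for 10 cytosolic genes and the lowest for 6, and was the highest for 17 of the 24. In OE, replicate 3 was the highest for 15 of the 20 cytosolic genes (lowest for 3) and replicate 1 the lowest for 14 (highest for 3). Their median deviations over the cytosolic genes were 0.04 and -0.04, against 0.11 for si replicate 3. The OE libraries also lay close together for the ATF4 list, with median deviations of the ATF4 list between -0.03 and 0.02, against -0.21 to 0.25 in si_NC. The part of these deviations in the calls was not tested beyond the fits without these libraries given above.

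The spread between replicates differed from gene to gene. The pooled SD within groups was 0.042 on the log2 scale for NARS. It was 0.236 for WARS, 0.246 for GARS and 0.307 for FARSA, and largest for the scarce mitochondrial genes PARS2 (0.310), NARS2 (0.337) and MARS2 (0.402). Over the 12 libraries WARS ranged 2.75-fold and YARS2 1.13-fold. Of the exon bases of YARS2, 700 of 7733 are shared with DNM1L on the opposite strand, a gene with a mean of 82.0 CPM against 22.5 CPM for YARS2.

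**Figure D5:**
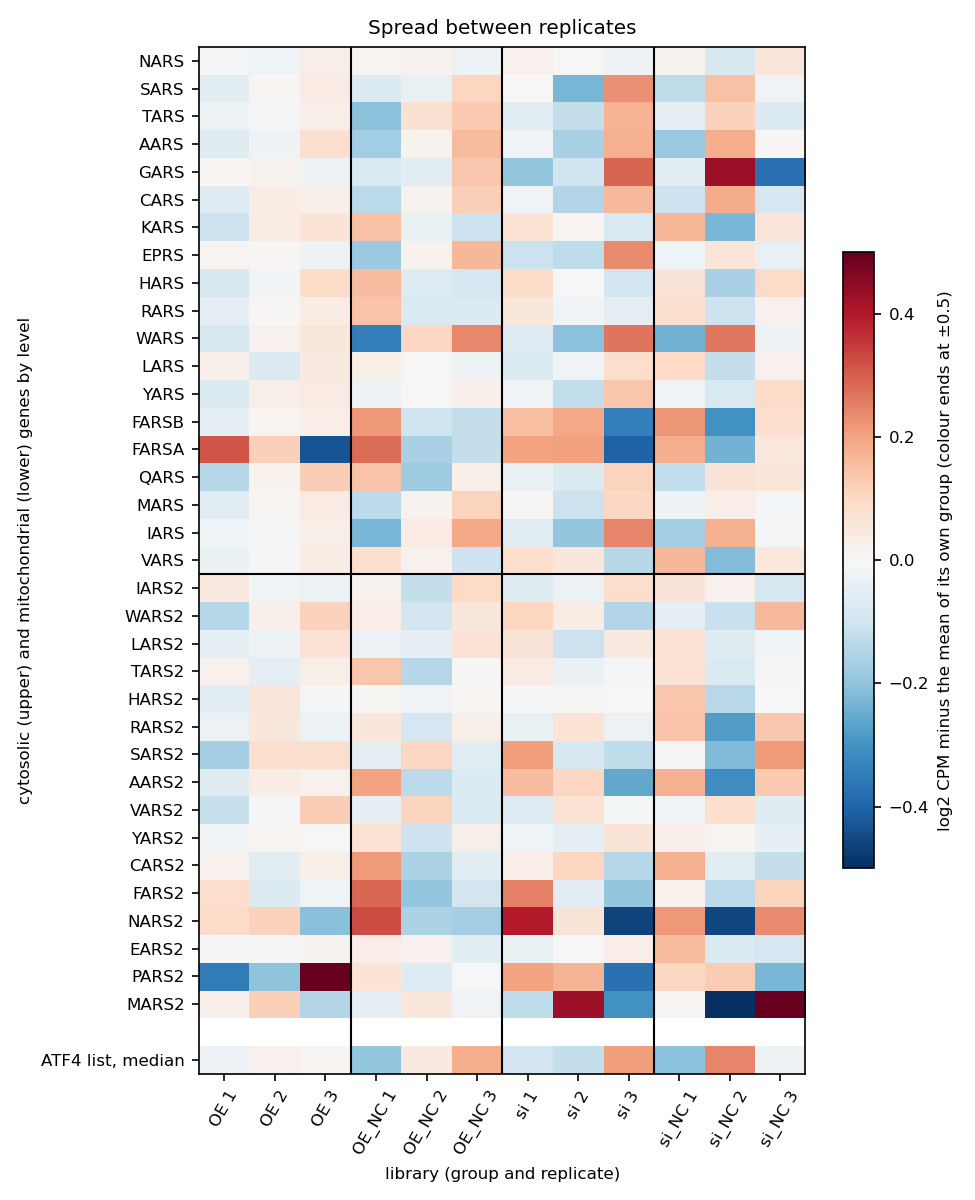
Deviation of 35 synthetase genes from the mean of their own group in each library (log2 CPM, red higher, blue lower), with the median of the ATF4 list as the bottom row. Within si_NC, replicate 2 is the highest or the lowest for each cytosolic gene shown, and the ATF4 list medians of the OE libraries lie between -0.03 and 0.02.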

How the data were processed

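RNA-seq of 12 libraries in 4 groups was used. The authors deposited 2 values per gene and library, a raw count of reads and an RPKM; per the submitters' processing notes, reads passed fastp 0.23.0 and were counted with featureCounts of Subread 1.5.1. Not given in the sources used here: aligner, genome build, counting strand, and handling of multiply mapped reads. The deposited RPKM could be rebuilt from counts, exon lengths and column totals (largest relative deviation 6.62e-14), so RPKM carries no composition scaling. Of nonzero counts 67.4% were even, as where both reads of a pair are counted, so read counts may overstate the number of fragments. All 12 columns of each table matched a sample title (0 unmapped), and 2 entries that name no gene (0.0868 to 0.116% of counts) were left out.

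The test was edgeR's quasi-likelihood test (version 4.0.16, R 4.3.3) after filterByExpr (minimum count 10, minimum total 15; 16300 genes kept) and TMM scaling. One model held the 12 libraries, a coefficient for each group and 8 residual degrees of freedom. Benjamini-Hochberg adjustment ran over all genes tested, with a threshold of 0.05 for a call. CPM are TMM-scaled, except the means and sums of cell type markers and the means of genes that share exon bases, which used library totals. Standard errors are of the log2 change, and intervals are 95% intervals from the same fit. The procedure was run on simulated counts with known changes of 1.5-fold or more. That run held no smaller changes and no deviating libraries, so it cannot speak to calls that rest on either. Members were found by symbol; 19 current symbols matched directly in a RefSeq gene table (ARS-UCD2.0), 16 by synonym and 2 with 1 added, and that table gave chromosome numbers only. TARS3 was matched as TARSL2, and 1 of 11 listed mitochondrial translation factors was not matched.

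The members, the companion lists and the tests were chosen with earlier results of these data known. For 2 members the single values are not reported here; counts and medians over the members include them. Given with statistics were members called in a comparison, filled up to 5 by p where fewer were called; the 3 highest and 3 lowest genes of each compartment by level; and up to 3 called genes per list. Genes outside this rule, such as DDIT3, DDX19A and BRF2, were chosen after their values were seen. Alternatives were other scalings, filters and tests (DESeq2 1.42.0, limma 3.58.1 on log2 RPKM with 1 or 0.1 added), halved counts, an offset for exon length, a replicate block, fits of only the groups compared, and leaving out libraries. Their use for the companion lists was chosen after seeing the data. No sequences were used.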

Additional observations from a re-analysis of the deposited data

Results flagged for a closer look

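The change in OE and the change in si differed, by the test of the difference of the changes (edgeR, adjusted over all genes tested, where 8.41% were called), for NARS and 8 genes of the companion and marker lists. The difference (OE change minus si change, log2) was 0.49 ± 0.08 for NARS, described above. Among companions it was 0.40 ± 0.11 for the complex scaffold AIMP1, 0.42 ± 0.10 for the mitochondrial initiation factor MTIF2, -0.60 ± 0.16 for the folate enzyme MTHFD2, 0.43 ± 0.12 for the polymerase III subunit POLR3GL, -0.89 ± 0.21 for POLR3K and 0.46 ± 0.11 for BDP1. Of the markers it was -0.77 ± 0.20 for the precursor marker THY1 and -1.22 ± 0.19 for the muscle actin gene ACTA1. Of the 12 fits that left out a library, AIMP1 and POLR3GL were called in 3 each and MTIF2, MTHFD2 and THY1 in 6. BDP1 was called in 8, POLR3K in 9, and NARS and ACTA1 in all 12. These fits called 3.53 to 12.8% of all genes.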

How the results depend on the processing

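Of the 340 recomputed log2 changes of named synthetase genes, 315 kept their direction and side of the threshold, 13 lost a call, 12 gained one and 0 reversed. The 340 include members filled in by p that were not called in the main fit and had no call to lose. The 315 therefore do not measure how often calls held. For si against si_NC, the count of 1 became 2 with DESeq2 size factors (3.04% of all genes called), a filter of 5 CPM (5.1%) or the exon-length offset (4.15%), 3 with the DESeq2 test (8.56%), no filter (4.13%), or without si replicate 3 and si_NC replicate 2 together (6.7%), and 0 in a fit of only those groups (0.0524%) or at 1.5-fold or more (0.687%). It ranged from 0 to 6 when a library was left out: 0 without si replicate 2 (0.415%), 2 without si replicate 3 (4.09%) and 6 without si_NC replicate 2 (6.45%). For OE against OE_NC, the count of 0 became 2 (FARSA and WARS) with no filter (5.74% of all genes), and stayed at 0 without each library. Of all genes, only 0.113 to 0.269% were called without OE replicate 2 or 3 or OE_NC replicate 1 or 2. The share was 1.34% without OE replicate 1 and 4.54% without OE_NC replicate 3. For OE_NC against si_NC, the count of 7 became 1 (WARS) at 1.5-fold or more (7.59% of all genes). It lay between 6 and 9 in the other settings that kept every library (12.5 to 26.7%). When a library was left out it ranged from 4 to 7 (11.3 to 16.9%). The count was 4 without si_NC replicate 1 (13.1%), si_NC replicate 3 (14.7%) or OE_NC replicate 3 (15.7%). For the difference of the changes, the count of 2 became 1 with library totals (9.41% of all genes) or limma on log2(RPKM + 0.1) (8.57%). It was 0 at 1.5-fold or more (4.53%), and ranged from 1 to 3 when a library was left out (3.53 to 12.8%). The cause was not tested.

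Library totals moved the median of all genes to 0.10 in si, -0.06 in OE, 0.11 in OE_NC against si_NC and -0.16 for the difference. Same-numbered libraries did not deviate together in every pair (correlations -0.26 to 0.09 for si, -0.01 to 0.04 for OE and -0.12 to 0.19 for the controls). With the replicate block the counts were 1, 0, 6 and 2 (2.43, 4.93, 19.3 and 7.65% of all genes called). In the si comparison no sample correlated best with its own number. Between the controls, replicates 1 and 2 of OE_NC did (0.19 and 0.07) and replicate 3 did not. In the OE comparison, OE replicate 1 did (0.04) and replicates 2 and 3 did not. Of the ATF4 list in si, 6 genes were called higher and 1 lower by DESeq2 (8.56% of all genes called), 9 and 1 with no filter (4.13%), and 0 in a fit of only those groups; these counts for companions were chosen after seeing the data. Depth limits the scarce mitochondrial genes: MARS2 had at most 30 counts in a library, and its log2 change in si had a standard error of 0.37.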
